A study of Homo sapiens with 12 samples.

Results

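The genes described here are 10 kallikreins of the chromosome 19 cluster, KLK1, KLK3, KLK5, KLK6, KLK7, KLK8, KLK10, KLK11, KLK12 and KLK13, out of 60671 genes in the count table. They were chosen by name with their values in all 6 groups known, as family members that moved in opposite directions. The choice names no comparison, so their values in every comparison are a description, with no test. Those that passed the threshold are named beside the share of all genes, also as a description and not as support. The other 6 annotated kallikrein genes of the cluster (KLK2, KLK4, KLK9, KLK14, KLK15 and the pseudogene KLKP1) were read beside them. All libraries come from LS180, a long-established line of human colorectal cancer cells, in 3 derivatives in which doxycycline switches on GFP, V5-tagged wild-type SOX9 or V5-tagged M303, a mutant described as a truncated SOX9. Each derivative was profiled by mRNA sequencing without doxycycline and after 24 h at 0.5 µg/ml, giving 6 groups of 2 libraries, 12 in all. Each construct sits in its own derivative, so construct and derivative cannot be told apart, and no label ties the duplicates to separate cultures, so the spread behind every p-value here may be technical.

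Kallikreins are secreted serine proteases that are made as inactive precursors and activated by removal of a short propeptide, often by another kallikrein. KLK1 releases kinins from kininogen, KLK3 is prostate-specific antigen, which liquefies semen, and KLK5, KLK7 and KLK8 cut the desmosomal junctions of shedding skin cells. KLK6, KLK10 and KLK11 are made by many epithelia and are often raised in tumours of the gut and ovary. The genes lie side by side, most of them on the same strand, and KLK2, KLK3 and KLK4 are best known from the prostate. SOX9 is a DNA-binding regulator made in the stem and Paneth cells of intestinal crypts.

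Library totals ran from 31012775 to 48529770 counts. The SOX9 gene, the check of the labels, stood between 357 and 405 CPM (each count scaled by the TMM-adjusted library size) in the 8 libraries without an induced SOX9 construct, at 712 and 761 CPM in induced SOX9 and at 818 and 867 CPM in induced M303. Of 18219 genes tested, 541 were called in SOX9 induction (edgeR quasi-likelihood test, Benjamini-Hochberg adjusted p under 0.05). The 7 colorectal epithelial markers were all detected in every group and summed to 9650 and 9660 CPM in induced SOX9 against 10400 to 11700 CPM in the other 10 libraries. Of these 7, 0 rose and 3 fell in SOX9 induction (median log2 fold change -0.16 against 0.006 for all genes): LGALS4 (-0.67, edgeR adjusted p = 1.8e-06), CDX2 (-0.46, edgeR adjusted p = 0.00418) and VIL1 (-0.28, edgeR adjusted p = 0.0446). The call of CDX2 was lost without uninduced SOX9 replicate 2 (-0.31) or induced SOX9 replicate 1 (-0.43), and that of VIL1 without either of these or induced SOX9 replicate 2 (-0.20 to -0.30), without any 1 of the 4 M303 libraries (-0.28), with the replicate block (-0.28, edgeR adjusted p = 0.0832) and with only the groups compared (-0.27). The 5 goblet cell markers summed to 869 and 905 CPM in induced SOX9 against 1400 to 1810 CPM in the other 10 libraries. CD3E, a marker of T cells, was at 0 throughout, and blood, endothelial and fibroblast markers summed to at most 1.22, 0.46 and 2.92 CPM.

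The promoters of KLK3 and KLK6 are shown because these 2 genes moved furthest in opposite directions among the well-counted genes, and that of KLK2 because it is nearly a copy of KLK3. The sequences are RefSeq's (GRCh38.p14), run from 250 bases before the start site to 50 after it, 5′ to 3′ on the gene's strand. They lie at chr19:50854665-50854964 (plus strand) for KLK3, chr19:50873189-50873488 (plus strand) for KLK2 and chr19:50969542-50969841 (minus strand) for KLK6. Capitals mark 3 motifs, each searched on both strands. They are ACAAT, a core bound by SOX proteins, AGAACA, a hexamer bound by the glucocorticoid receptor, and TATAAA, the TATA box.
KLK3: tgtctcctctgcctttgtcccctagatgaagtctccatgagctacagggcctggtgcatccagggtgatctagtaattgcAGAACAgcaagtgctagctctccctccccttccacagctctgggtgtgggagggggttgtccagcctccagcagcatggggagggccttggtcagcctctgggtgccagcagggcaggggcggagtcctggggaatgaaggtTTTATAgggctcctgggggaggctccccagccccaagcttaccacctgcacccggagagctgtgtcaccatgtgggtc
KLK2: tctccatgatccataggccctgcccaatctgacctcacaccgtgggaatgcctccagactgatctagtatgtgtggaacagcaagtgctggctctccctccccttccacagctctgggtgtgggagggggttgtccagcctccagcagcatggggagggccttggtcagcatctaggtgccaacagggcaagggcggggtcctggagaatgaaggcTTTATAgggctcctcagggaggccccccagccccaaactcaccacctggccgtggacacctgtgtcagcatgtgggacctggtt
KLK6: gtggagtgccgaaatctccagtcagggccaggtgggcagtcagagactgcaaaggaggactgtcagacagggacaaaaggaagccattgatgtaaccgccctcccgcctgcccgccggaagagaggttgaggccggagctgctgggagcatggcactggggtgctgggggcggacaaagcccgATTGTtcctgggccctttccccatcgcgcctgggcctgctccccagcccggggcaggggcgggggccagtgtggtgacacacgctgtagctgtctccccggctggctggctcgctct
The KLK6 window held 1 ACAAT, read on the opposite strand at position -67 from the start site, and neither other motif. The KLK3 window held AGAACA at -170 and TATAAA, on the opposite strand, at -28, and no ACAAT. The KLK2 window held TATAAA, also on the opposite strand, at -34, and matched KLK3 at 236 of 269 aligned bases (87.7%).

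Across the table, 22 windows belonged to 13 of the 16 kallikrein genes, 8 of the 10 chosen genes among them, and the chosen genes had 13 of those windows. ACAAT occurred in 7 of the 22 windows (4 of 13 for the chosen genes) and in 27.4% of all 35116 windows of the same length. Beside KLK6 it was found in KLK10 and KLK13, and outside the chosen genes in KLK14 and KLK15. AGAACA occurred only in the KLK3 window among the 22, against 14.8% of all windows. TATAAA occurred in 3 of 22, those of KLK15, KLK3 and KLK2, against 11.5% of all windows. A match is a string of letters and not a measured binding site. Only these exact strings were searched, so a window without ACAAT may hold another form of SOX site.

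KLK10, KLK6 and 4 further genes made up most of the family's counted reads in LS180. Per length of annotated exon, as RPKM (the CPM divided by the exonic length in kilobases) over the 6 uninduced libraries, KLK10 stood at 49.1 ± 3.04 and KLK6 at 27.0 ± 1.53 (SD, n = 6). KLK8 (10.7 ± 0.813), KLK1 (10.6 ± 1.11), KLK11 (10.3 ± 0.839) and KLK7 (10.1 ± 0.628 RPKM) followed, and these 4 values did not differ beyond their spread. The length includes bases shared with other genes, where reads were not counted. Such bases are 40.1% of KLK8, 20.5% of KLK6 and 6.32% of KLK10, and 0% of KLK1, KLK7 and KLK11. The RPKM of KLK8 and KLK6 may therefore be too low beside the others. KLK12 was at 1.62 ± 0.499 and KLK3 at 1.01 ± 0.184 RPKM, whose ranges of 0.967 to 2.13 and 0.824 to 1.22 overlap. KLK5 was at 0.0576 ± 0.0407 RPKM, on 2 to 8 counts per library, and KLK13 had no count in any uninduced library, where a count of 0 allows up to 3. KLK13, with at most 6 counts in 1 library, did not pass the filter on low counts, which left 9 of the 10 genes in the fit.

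**Figure D1:**
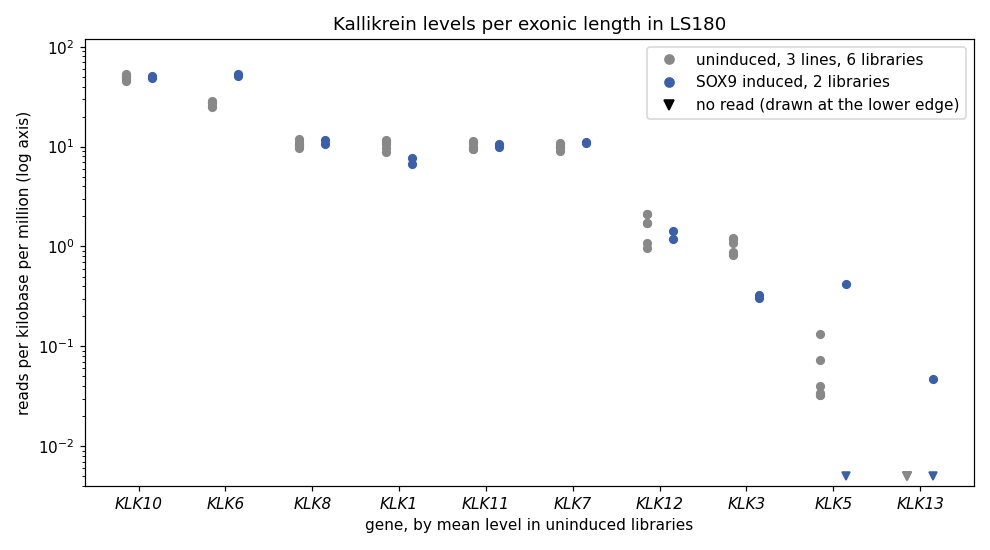
Level of each chosen kallikrein in RPKM (log axis), in the 6 uninduced libraries of the 3 lines (grey) and the 2 induced SOX9 libraries (blue), with triangles for libraries without a read. KLK10 is highest in the uninduced libraries, KLK6 comes up to it in induced SOX9, and KLK3 drops below all 6 uninduced libraries.

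The family total was highest in induced SOX9. The 10 genes summed to 394 and 391 CPM there and to 328 to 381 CPM in the other 10 libraries. In the same line without doxycycline the sums were 340 and 344 CPM. KLK6 averaged 51.7 CPM in that line without and 103 CPM with doxycycline, and KLK10 180 and 188 CPM. KLK10, a kallikrein whose own proteolytic activity is in doubt, supplied 46.6% and 49.3% of the family's counts in induced SOX9 and 50.4% to 54.8% elsewhere. In bulk RNA, a change in the share of cells that make a transcript and a change in the amount per cell cannot be told apart.

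**Figure D2:**
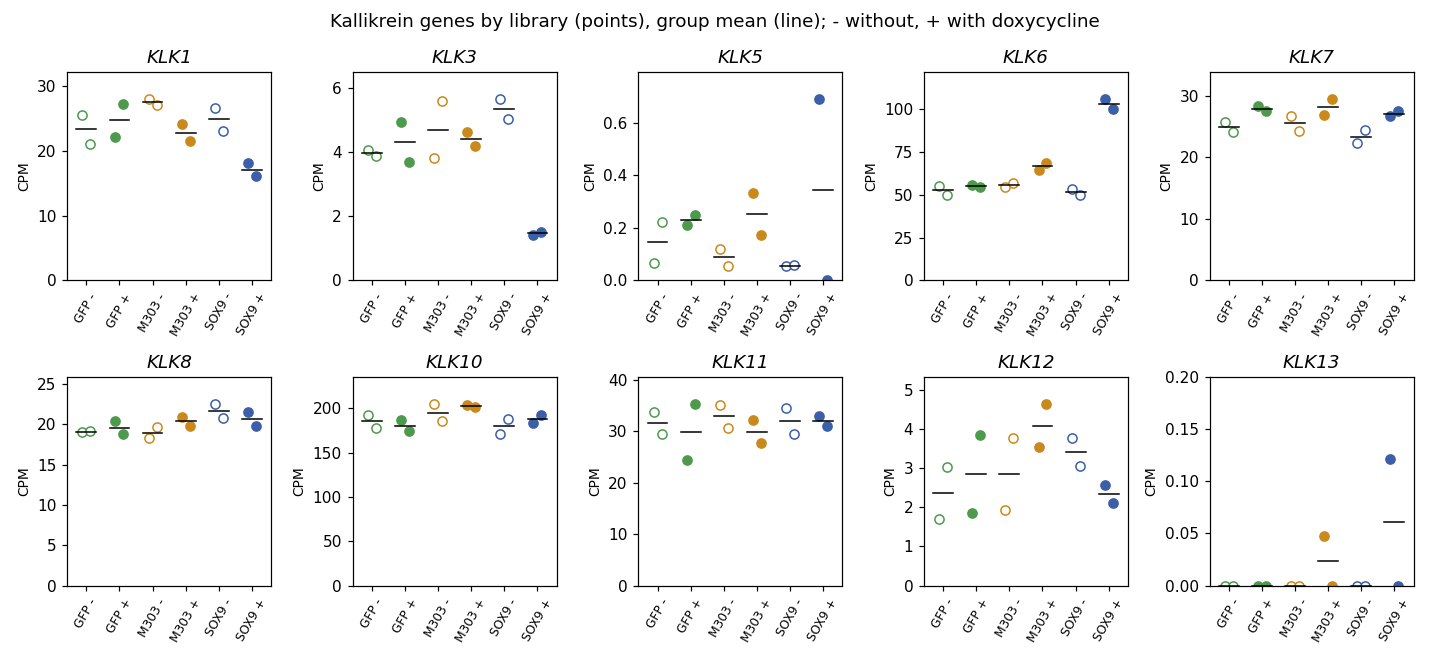
CPM (linear axes from 0, a different scale in each panel) of the 10 chosen kallikreins in every library, by line, without (open) and with (filled) doxycycline; lines are group means. KLK6 stands out upward and KLK3 and KLK1 downward in the 2 induced SOX9 libraries, while KLK8, KLK10 and KLK11 stay within the range of the other libraries.

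KLK1, the tissue kallikrein, was lowest in induced SOX9. It measured 18.1 and 16.1 CPM there and 26.7 and 23.1 CPM in the same line without doxycycline. In the M303 line it was at 28.0 and 27.1 CPM without and 24.1 and 21.5 CPM with doxycycline, and in the GFP line at 25.5 and 21.1 without and 22.2 and 27.3 with. Both induced SOX9 libraries lie below all 10 others, whose lowest is 21.1 CPM. The log2 fold change in SOX9 induction was -0.54 (SE 0.13).

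Among the 9 chosen genes with enough counts to fit, KLK3 had the deepest drop. It measured 1.42 and 1.51 CPM in induced SOX9, on 70 and 48 counts, against 5.65 and 5.04 CPM in the same line without doxycycline. In the GFP line it was at 4.05 and 3.89 CPM without and 4.94 and 3.69 CPM with doxycycline, and in the M303 line at 3.82 and 5.57 without and 4.61 and 4.20 with. The 10 other libraries span 3.69 to 5.65 CPM, and both induced SOX9 libraries lie below all of them. The log2 fold change was -1.87 (SE 0.26), a level 3.65-fold lower, and this response differed from that with M303 by -1.77 on the log2 scale (SE 0.36) and from that with GFP by -1.99 (SE 0.36). KLK3 and KLK2 transcripts share 11 distinct words of 50 bases, which may overlap within the same stretch, and none of 100 bases. Reads that map to both genes were not counted.

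The skin-type proteases KLK5, KLK7 and KLK8 gave no common movement. KLK5, which activates other kallikreins, had 34 counts in 1 induced SOX9 library and 0 in the other, against 2 and 2 uninduced. Its fitted log2 fold change of 2.63 (SE 1.42, its interval spanning 0), the highest of the 9, rests on that 1 library. KLK7, the chymotrypsin-like enzyme of the group, was at 26.8 and 27.5 CPM in induced SOX9 against 22.3 and 24.4 CPM uninduced, which is within the 22.3 to 29.5 CPM of the other 10 libraries (log2 fold change 0.22, SE 0.11). KLK8, also a protease of the nervous system, was at 21.5 and 19.8 CPM against 22.5 and 20.8 CPM (log2 fold change -0.07, SE 0.12). Of its exonic bases 40.1% are shared with other annotated genes, KLK9 included, and reads there were not counted.

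KLK6, a trypsin-like protease also known from the brain, had the clearest rise. It measured 106 and 100 CPM in induced SOX9, on 5228 and 3197 counts, against 53.5 and 49.9 CPM in the same line without doxycycline. In the GFP line it was at 55.5 and 49.7 CPM without and 55.7 and 54.9 CPM with doxycycline. In the M303 line it was at 54.7 and 57.1 CPM without and 64.8 and 68.6 CPM with, so induced M303 lies above the uninduced libraries and below induced SOX9. The log2 fold change in SOX9 induction was 1.00 (SE 0.09), which was larger by 0.74 (SE 0.12) than with M303 and by 0.93 (SE 0.12) than with GFP. KLK6 shares 20.5% of its exonic bases with 2 genes of the opposite strand. One of these, ENSG00000269495, had at most 1 count in a library. The other, ENSG00000267879, averaged 0.964 CPM and shares only 4 bases with KLK6.

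KLK10 and KLK11, neighbours that are both made by glandular epithelia, were level. KLK10 was at 184 and 193 CPM in induced SOX9 against 171 and 188 CPM uninduced (log2 fold change 0.07, 95% CI -0.10 to 0.23). KLK11 was at 32.9 and 31.01 CPM against 34.5 and 29.5 CPM (log2 fold change 0.00, 95% CI -0.30 to 0.30). KLK12, at 2.56 and 2.11 CPM against 3.77 and 3.04 CPM, had a log2 fold change of -0.54 (SE 0.37), and its libraries range from 1.71 to 4.63 CPM elsewhere. KLK13 had 6 and 0 counts in induced SOX9, 2 and 0 in induced M303 and none in the other 8 libraries.

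In SOX9 induction 1 of the 9 was called higher (KLK6) and 2 lower (KLK1 and KLK3), against 1.81% and 1.16% of all genes. Libraries of the 2 groups did not overlap for 2 of the 9 upward (KLK6 and KLK7) and 3 downward (KLK1, KLK3 and KLK12), where 23.2% and 21.5% of all genes did the same. The median log2 fold change of the 9 was -0.001, and that of all genes 0.006. For the difference between SOX9 and M303 induction, KLK6 was called higher and KLK3 lower, where 0.357% and 0.132% of all genes were called. For the difference from GFP induction the same 2 genes were called, against 0.631% and 0.263% of all genes. These counts are a description of values known to the choice. The call of KLK1 in SOX9 induction was lost when uninduced SOX9 replicate 1 (log2 fold change -0.43), induced SOX9 replicate 1 (-0.64) or induced SOX9 replicate 2 (-0.47) was left out. The KLK3 difference from M303 lost its call without any 1 of 5 libraries (values of -1.53 to -1.82).

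With truncated SOX9 the values of KLK6 and KLK3 lay nearer 0, in libraries that the choice also had in view. For M303 induction edgeR called 0 of the 9 genes and DESeq2 also 0, while KLK6 alone had an unadjusted p under 0.05. Across all genes 1, SOX9 itself, was called (0.00549%). KLK6 had a log2 fold change of 0.25 (95% CI 0.07 to 0.43), and KLK1 one of -0.27 (95% CI -0.55 to 0.00). KLK3 was at -0.09 (95% CI -0.60 to 0.42), beside the -1.87 measured with wild-type SOX9. Libraries did not overlap upward for KLK5, KLK6, KLK7 and KLK8, 4 of 9 where 17.1% of all genes did so, and downward for KLK1, 1 of 9 where 16.8% did so.

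Doxycycline in the GFP line, where it also switches on GFP, was followed by no call among the 9 (edgeR, 0 with an unadjusted p under 0.05, DESeq2 0). Among all genes edgeR made no call either (0%, with 580 genes at an unadjusted p under 0.05 and 2 called by DESeq2). The effect of doxycycline without an induced construct was not measured. Only KLK7 had no overlap, upward, where 13.5% of all genes lay apart upward and 13.8% downward. KLK6 had a log2 fold change of 0.07 (95% CI -0.11 to 0.25) and KLK3 of 0.12 (95% CI -0.39 to 0.64). The M303 response minus the GFP response was 0.18 (SE 0.12) for KLK6 and -0.36 (SE 0.19) for KLK1.

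The 3 lines were also compared without doxycycline. Between the M303 and GFP lines 0 of 9 genes were called by edgeR (0 at an unadjusted p under 0.05, DESeq2 0) and 0.00549% of all genes. Between the SOX9 and GFP lines 0 of 9 were called (0 at an unadjusted p under 0.05, DESeq2 0) and 0% of all genes, with 866 genes at an unadjusted p under 0.05 and 2 called by DESeq2. For KLK3 the uninduced SOX9 line minus the GFP line was 0.43 on the log2 scale (SE 0.25, 95% CI -0.08 to 0.94). KLK6 differed by -0.02 (95% CI -0.20 to 0.16).

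**Figure D3:**
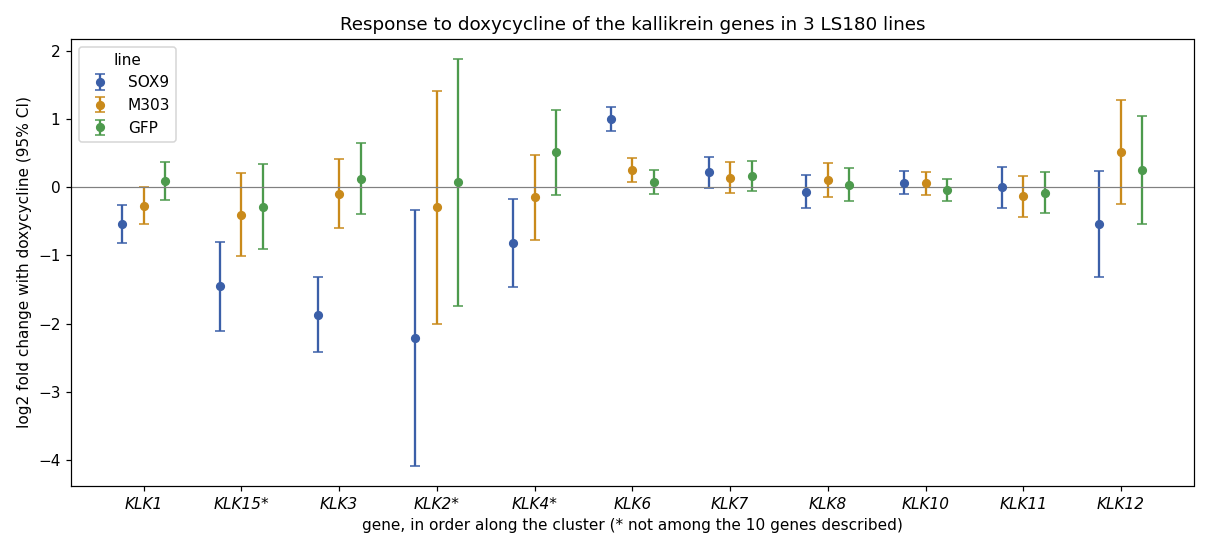
Log2 fold change with doxycycline (points) and 95% confidence interval (bars) of 11 kallikrein genes in the SOX9, M303 and GFP lines. Genes are in their order along the cluster. KLK5 (2.63 in the SOX9 line, SE 1.42) and KLK14 (-1.26, SE 1.71), with at most 34 and 38 counts in a library, are left out. KLK2 is shown although it had at most 32 counts. In the SOX9 line the genes from KLK1 to KLK4 lie below 0, KLK6 lies at 1.00, the genes from KLK7 to KLK11 lie between -0.07 and 0.22, and KLK12, at the far end, lies at -0.54.

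At the end of the cluster that holds KLK1 and KLK3 the fitted genes all had lower values in induced SOX9. At the other end KLK12 also had a negative log2 fold change (-0.54), with an interval that includes 0. KLK14, also there, had too few counts for a usable fold. The position was noticed after the values were seen and was not tested. The 16 genes span 265 kb of chromosome 19 (GRCh38, 50819146 to 51084245). At the lower-coordinate end lie KLK1 (50819146 to 50823787, minus strand), KLK15, KLK3 (50854915 to 50860764, plus strand), KLK2, KLKP1 and KLK4. KLK15, an activator of the KLK3 precursor, fell in SOX9 induction from 4.50 and 3.91 CPM to 1.24 and 1.89 CPM, or -1.45 on the log2 scale (SE 0.31, edgeR adjusted p = 0.0102). Without induced SOX9 replicate 1 that value was -1.16 (edgeR adjusted p = 0.206). KLK4, a protease of developing enamel, was at 1.36 and 1.63 CPM against 3.05 and 2.20 CPM (-0.82, SE 0.31, edgeR adjusted p = 0.209). KLK2, an activator of KLK3, was at 0.203 and 0.0628 CPM, on 10 and 2 counts, against 0.857 and 0.451 CPM (-2.20, SE 0.90, edgeR adjusted p = 0.257). The differences of KLK15 from its M303 response (-1.05, edgeR adjusted p = 0.593) and from its GFP response (-1.17, edgeR adjusted p = 0.369) did not pass the test.

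On the other side of that run lie KLK5, KLK6 (50958631 to 50969673, minus strand), KLK7 to KLK13 and KLK14. KLK12 (51029092 to 51035230, minus strand) had a log2 fold change of -0.54, like KLK1, but with an SE of 0.37 and an interval that includes 0. Its induced and uninduced SOX9 libraries did not overlap, as for 21.5% of all genes downward. KLK14, an activator in skin, had 0 and 2 counts in induced SOX9 and 3 and 2 uninduced (fitted log2 fold change -1.26, SE 1.71). In the GFP line it had 38 and 10 counts with doxycycline and 2 and 0 without (4.23, SE 1.53, not called). On so few counts it gives no usable fold. KLK9 had no count in any library, and 96.3% of its exonic bases are shared with other genes, where reads were not counted. KLKP1 had at most 6 counts and was not tested. Within 200 kb on either side of the cluster, counting genes inside it too, 43 other genes are annotated and 9 were tested, of which edgeR and DESeq2 each called 0 in each of the 8 comparisons, with at most 1 gene at an unadjusted p under 0.05. In SOX9 induction their median log2 fold change was -0.03, between -1.11 and 0.50.

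Kinin, inhibitor and target genes were read from lists. Of 10 genes of the kinin system 6 were tested, and 1 rose in SOX9 induction: MME, the membrane peptidase neprilysin that degrades kinins, went from 297 and 293 CPM to 400 and 395 CPM (log2 fold change 0.43, SE 0.07, edgeR adjusted p = 0.000469). The median of the 6 was -0.09 against 0.006 for all genes. The kinin receptor BDKRB2 had a value of -0.36 on the log2 scale (SE 0.14, edgeR adjusted p = 0.196), and kininogen, KNG1, was not tested for low counts.

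Of 21 serine protease inhibitors 14 were tested, 0 rose and 2 fell (list median 0.04). SPINK4, an inhibitor-type peptide of goblet cells, went from 58.5 and 62.1 CPM to 23.3 and 26.4 CPM (log2 fold change -1.28, SE 0.14, edgeR adjusted p = 1.84e-05). SERPINA1, alpha-1-antitrypsin, went from 22.3 and 22.4 CPM to 13.3 and 12.9 CPM (-0.77, SE 0.13, edgeR adjusted p = 0.00119). SPINK5 and SPINK6, the inhibitors of skin kallikreins, were not tested for low counts. SPINK4 is also on the goblet cell list, of which MUC2, TFF3, AGR2 and SPINK4 fell, 4 of 5. The call of TFF3 (-0.80, edgeR adjusted p = 0.0339) was lost without any 1 of the 8 libraries of the SOX9 and M303 lines (-0.77 to -0.84).

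Among 20 other trypsin-like proteases 13 were tested (median 0.12), and PRSS23, a secreted serine protease, was the 1 that rose. It went from 103 and 106 CPM to 298 and 295 CPM, while the other 8 libraries lay between 99.4 and 134 CPM (log2 fold change 1.51, SE 0.07, edgeR adjusted p = 7.2e-11). The membrane proteases ST14 (0.12, SE 0.09) and PRSS8 (-0.04, SE 0.09) were not called.

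Of 25 receptors and substrates 16 were tested (median 0.04), 1 rose and 1 fell. IGFBP3, a growth factor binding protein cut by KLK3, went from 41.9 and 41.8 CPM to 59.0 and 64.7 CPM (0.56, SE 0.10, edgeR adjusted p = 0.00149). F2RL1, the receptor PAR2 that KLK5 and KLK6 can activate by cleavage, went from 126 and 126 CPM to 97.1 and 100.5 CPM (-0.35, SE 0.08, edgeR adjusted p = 0.0123). Leaving out induced SOX9 replicate 2 ended the call of IGFBP3 (edgeR adjusted p = 0.0593), and leaving out uninduced SOX9 replicate 2 or either induced SOX9 library ended that of F2RL1 (edgeR adjusted p = 0.0647 to 0.175).

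Keratinocyte and squamous markers, 8 of 14 tested, had 0 calls by edgeR in SOX9 induction (1 at an unadjusted p under 0.05, 1 called by DESeq2), and summed to 31.1 and 39.4 CPM in induced SOX9 against 20.7 to 37.3 CPM elsewhere. Of 5 prostate luminal markers, KLK2 among them, 4 were tested, with 0 above 0 in SOX9 induction (median log2 fold change -0.35). They summed to 42.6 and 43.9 CPM in induced SOX9 against 49.7 to 58.4 CPM in the other 10 libraries. SLC45A3, a membrane transporter of prostate epithelium, was the 1 that fell, from 24.9 and 27.5 CPM to 19.8 and 17.7 CPM (-0.48, SE 0.12, edgeR adjusted p = 0.032). That call was lost without uninduced SOX9 replicate 2 (-0.41), induced SOX9 replicate 1 (-0.58) or induced SOX9 replicate 2 (-0.41).

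**Figure D4:**
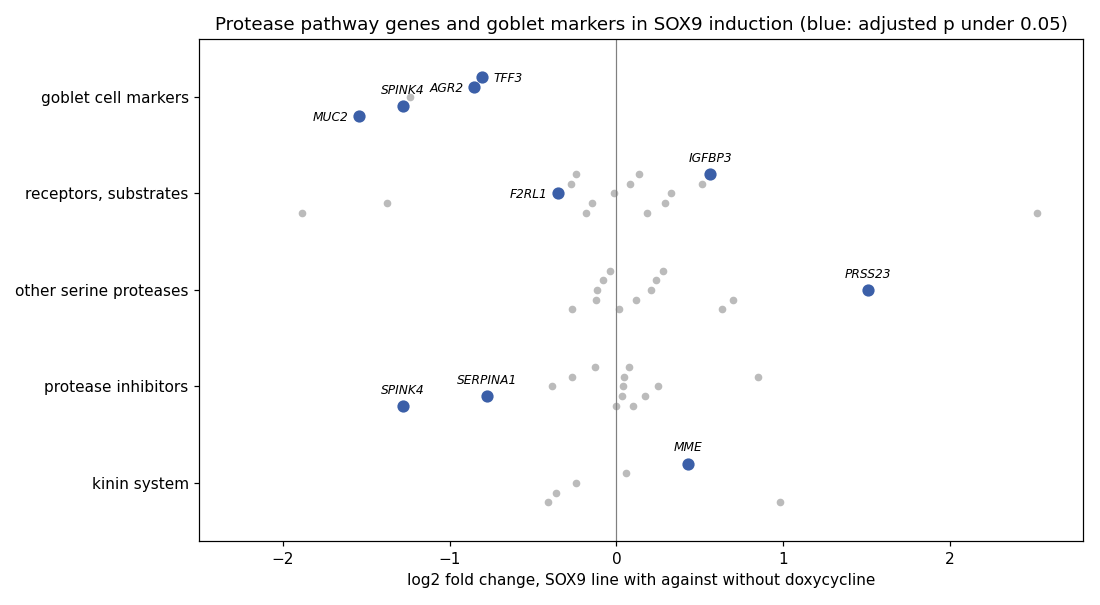
Log2 fold change in SOX9 induction (horizontal axis) of the tested genes of 5 lists, 1 row per list with points offset vertically for legibility; blue points with names passed the test and grey points did not. PRSS23 lies farthest to the right of the named genes, at 1.51, and MUC2 farthest to the left, at -1.54.

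Genes with the most similar pattern over the 12 libraries were listed for 3 kallikreins. They are named by the 5 highest Pearson correlations of log2 CPM among 12012 genes (12013 for KLK5), and since all libraries are shared with the choice these are descriptions. For KLK3, the lowest log2 fold change, they were ETV4 (r = 0.969), DDC (0.965), FABP2 (0.958), GCFC2 (0.954) and TMEM200A (0.953). FABP2, the intestinal fatty acid binding protein, averaged 6.24 CPM uninduced and 1.57 CPM induced in the SOX9 line. For KLK5, the highest, the leading gene was MUC20-OT1 (r = 0.814), on very few KLK5 counts. For KLK6, added after its values were seen, they were RNF128 (r = 0.974), KCNJ2 (0.973), A4GALT, DUSP10 and APCDD1 (0.972, 0.972 and 0.971). APCDD1, a WNT inhibitor, averaged 28.4 CPM uninduced and 112 CPM induced in the SOX9 line. The goblet, colorectal and prostate luminal markers named above were lowest, as sums, in the same 2 libraries that hold the low KLK3 and high KLK6 values, and their part in the kallikrein values was not tested.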

How the data were processed

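RNA sequencing counts of 12 LS180 libraries were used. Per the submitters' processing notes, STAR 2.7.0a aligned the 150-bp read pairs to the build hg38, and per the file headers the authors counted reads per gene with featureCounts 2.0.1 on Ensembl annotation. The recorded command sets no paired, strand or multi-mapping option, so mates were counted separately, strands were pooled, and reads mapping to several places or overlapping several genes were left out of the deposited counts. Overlapping genes therefore lose reads, and Poisson error exceeds what the totals imply.

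The counts were tested here with edgeR 4.0.16 in R 4.3.3 (TMM factors, filterByExpr, robust quasi-likelihood fit of 1 mean per group over all 12 libraries, 6 residual degrees of freedom, Benjamini-Hochberg adjustment over 18219 genes, calls under 0.05). Standard errors are the log2 fold change divided by the root of the F statistic, and 95% intervals use the t distribution of the fit. CPM and RPKM were computed from counts with TMM library sizes. Symbols came from a gene name table (42020 of 60671 genes, 69.3%), and gene coordinates and exonic lengths from the Ensembl annotation used for counting. Transcript sequences came from GENCODE, and promoters from RefSeq with Biopython 1.88 alignments. The 8 comparisons were 3 inductions, the 3 differences between them and 2 contrasts of uninduced lines. All count columns were used. No pair of replicates agreed within counting noise (chi-square per degree of freedom 7.38 to 23.2). Members and lists were chosen with earlier results of these data known. The text names the members, the other cluster kallikreins, SOX9, called genes of each list (at most 6 per comparison) and the 5 genes closest in pattern to the members with the highest and lowest fold change. Genes named that were not called were added after their values were seen. Alternatives were DESeq2 1.42.0, RLE factors, no filter on low counts, a minimum count of 50, only the groups compared, the replicate block, leaving out each library, and levels as shares of all counts. On simulated counts of 17564 genes for the SOX9 comparison, 87 of 100 genes changed by 1 on the log2 scale were recovered and 50 of 100 changed by 0.5. In that simulation 7 unchanged genes were called. The changed genes were drawn from those with a mean level above 1 CPM, so these shares do not cover lower genes such as KLK2, KLK5 and KLK14. A gene and its list are not reported here.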

Additional observations from a re-analysis of the deposited data

Results flagged for a closer look

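Groups of 2 libraries are too small for a test of single outlying libraries. Among the protease-related genes and markers that are not kallikreins, the response to wild-type SOX9 differed from another response by an interaction test in 11 cases. PRSS23 rose more with SOX9 than with M303 (difference 1.22 on the log2 scale, SE 0.10, edgeR adjusted p = 1.74e-06) and more than with GFP (difference 1.63, SE 0.10, edgeR adjusted p = 1.02e-08). IGFBP3 rose more with SOX9 than with M303 (difference 0.63, SE 0.14, edgeR adjusted p = 0.0428), and 9 of 18 alternatives ended that call. MME rose more with SOX9 than with GFP (difference 0.41, SE 0.09, edgeR adjusted p = 0.0443), and 14 of 18 alternatives ended that call. SPINK4 fell more with SOX9 than with GFP (difference -1.37, SE 0.20, edgeR adjusted p = 0.000824), and its difference from M303 was -0.82 (SE 0.20, edgeR adjusted p = 0.0944), which 7 of 18 alternatives brought under the threshold. Of the markers, LGALS4, a galectin of intestinal epithelium, fell more with SOX9 than with M303 (difference -0.53, SE 0.10, edgeR adjusted p = 0.00743, a call that 3 of 18 alternatives ended) and than with GFP (-0.74, SE 0.10, edgeR adjusted p = 0.000133). The goblet cell genes MUC2 (-1.42, SE 0.19, edgeR adjusted p = 0.000816 from M303, and -1.42, SE 0.19, edgeR adjusted p = 0.000451 from GFP) and AGR2 (-0.56, SE 0.10, edgeR adjusted p = 0.00411 from M303, a call that 1 of 18 alternatives ended, and -0.83, SE 0.10, edgeR adjusted p = 4.39e-05 from GFP) also fell more with SOX9.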

How the results depend on the processing

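Of 1555 values of named kallikreins, partner genes and markers under the alternatives, 0 called values reversed. Of 576 values of results called in the main analysis, 514 kept the call with the same direction and 62 lost it, and of 979 values of results not called, 17 gained a call and 20 changed sign without one. The number of chosen kallikreins called in SOX9 induction (3), in the difference from GFP (2) and in the other comparisons (0, apart from the difference from M303) was within 1.5 times of these values under every alternative. For the difference between SOX9 and M303 (2 called) it was 1 to 2 when 1 library was left out.

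The counts of all genes called moved more. Leaving out 1 library gave 231 to 675 for SOX9 induction (541), 57 to 107 for SOX9 minus M303 (89), 95 to 229 for SOX9 minus GFP (163), 1 to 2 for M303 (1), 0 to 9 for GFP (0), 1 to 12 for M303 minus GFP (1), 0 to 39 for the uninduced SOX9 line and 0 to 56 for the uninduced M303 line against GFP (0 and 1). The low values for SOX9 induction came without induced SOX9 replicate 2 (231), induced SOX9 replicate 1 (270) and uninduced SOX9 replicate 2 (301), with fewer samples in the fit, and the high values of the uninduced contrasts without uninduced GFP replicate 1, whose cause was not tested. DESeq2 called 3 genes for M303, 2 for GFP, 139 for SOX9 minus M303 and 2 for the uninduced SOX9 line. Without a filter the counts were 9 for M303, 4 for GFP, 147 for SOX9 minus M303, 270 for SOX9 minus GFP, 11 for M303 minus GFP, and 17 and 22 for the uninduced SOX9 and M303 lines. With only the groups compared they were 3 for M303 and 1 for the uninduced SOX9 line. The cause of these differences was not tested.

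Replicate differences without and with doxycycline correlated at -0.087 (GFP), -0.094 (M303) and 0.093 (SOX9) over 12013 genes. These values show no clear effect shared by equal replicate numbers. They cannot tell whether such libraries were handled together, which the labels do not say. With the replicate block 452 genes were called in SOX9 induction, and the chosen kallikreins called were 3. Depth limits KLK5, KLK13, KLK14 and KLK2, which had at most 38 counts in a library, so only large changes in them could show. KLK13 was not tested, and the others were not called in any comparison of the main analysis.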
